A study of Mus musculus with 3 samples.

Results

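A set of 9 genes of bone morphogenetic protein (BMP) signaling was followed across the cell types of inguinal fat: the receptor Smads *Smad1*, *Smad5* and *Smad9*, the inhibitory Smads *Smad6* and *Smad7*, and the targets *Id1*, *Id2*, *Id3* and *Id4*. They were taken by symbol, 9 of the 32285 genes listed, and the rule that took them used no measured value. The set, and the other gene lists below, were however chosen with earlier results of these data known. The cells were the stromal vascular fraction (SVF), the cells left when fat is digested and the adipocytes float off, from inguinal fat of 4-week-old mice of mixed sex, depleted of CD45-positive leukocytes and sequenced as 10x Genomics 3′ libraries. There was 1 library per genotype: wild-type (12 mice pooled), *Mgp*-KO (13 mice), in which the matrix Gla protein gene is deleted in every cell, and *Pd*-KO (11 mice), in which floxed *Mgp* is deleted by Cre under the *Pdgfra* promoter, a promoter active in fibroblast-like stromal cells. The Cre-negative floxed littermates of the *Pd*-KO mice were not analysed here, so the wild-type library is the reference for both knockouts, and genotype cannot be told apart from library.

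BMP ligands bind paired type I and type II receptors, which phosphorylate Smad1, Smad5 and Smad9. These join Smad4 and enter the nucleus, where the *Id* genes are among their most direct targets. Id proteins lack a DNA-binding region of their own and bind E proteins, which keeps basic helix-loop-helix factors off DNA. Smad6 and Smad7 are made in response to the pathway and dampen it, Smad6 mainly on the BMP side and Smad7 on both the BMP and the TGFβ side. Mgp is a secreted protein known to bind BMPs, which is the reason to read these genes in mice without it.

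Cells were barcodes with at least 2000 unique molecular identifiers (UMIs, each marking a captured transcript) and at most 10% mitochondrial UMIs, which left 10511 cells of the wild-type library, 12575 of *Mgp*-KO and 8819 of *Pd*-KO, with median depths of 12802, 6445 and 8269 UMIs. Cells were gated by marker lists that hold none of the 9 genes. The gates for adipose progenitor cells (APCs) held 8089, 11354 and 7303 cells in that order of libraries, the endothelial gate 569, 221 and 672, the mural gate of smooth muscle cells and pericytes 791, 198 and 434, and the luminal epithelial gate 277, 524 and 108. Most markers of each of these gates were detected in the median cell, at least 8 of 8 in APCs, 6 of 8 in endothelial, 5 of 8 in mural and 6 of 7 in luminal cells of any library. *Mgp* stood at 478 CPM (UMIs of a gene scaled to a common total per gate) in wild-type APCs, 1.92 in *Mgp*-KO and 1.39 in *Pd*-KO APCs. In endothelial cells it stood at 685, 0 and 50.8 CPM in the same order. Mural cells had 258, 0 and 430 CPM, of which pericytes had 611, 0 and 659 CPM and smooth muscle cells 209, 0 and 19.7 CPM, the last from 4 UMIs. *Mgp* was thus at 0 in both vascular gates of *Mgp*-KO. In *Pd*-KO it was not below wild-type in the mural gate as a whole or in its pericytes, but was below it in endothelial and smooth muscle cells. Mural cells in neither subset were not read apart. By *Xist* and Y-linked transcripts, 35.1%, 60.6% and 32.5% of cells were called female and 35.1%, 14.7% and 39.5% male. The order is wild-type, *Mgp*-KO, *Pd*-KO, so the called sex mix also differed between the libraries. The libraries shared 35 to 40 cell barcodes per pair. All sums of counts and ratios below carry exact intervals for counting error only.

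Promoter windows, the 250 bases before the transcription start in RefSeq (GRCm38.p6), were matched for 7 of the 9 genes, in 9 windows. *Id1* and *Smad7* were not matched. Those of 3 *Id* genes are shown because these genes encode proteins of one family and, in the values below, have their highest levels in different cell types. Each is written 5′ to 3′ on the strand of the gene, and capitals mark GGCGCC, the GC-rich motif of BMP response elements.
Id2: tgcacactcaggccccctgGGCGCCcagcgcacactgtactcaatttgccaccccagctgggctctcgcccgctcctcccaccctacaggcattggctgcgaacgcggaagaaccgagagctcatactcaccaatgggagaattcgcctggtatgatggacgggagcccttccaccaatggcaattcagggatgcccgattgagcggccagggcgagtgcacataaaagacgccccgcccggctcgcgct
Id3: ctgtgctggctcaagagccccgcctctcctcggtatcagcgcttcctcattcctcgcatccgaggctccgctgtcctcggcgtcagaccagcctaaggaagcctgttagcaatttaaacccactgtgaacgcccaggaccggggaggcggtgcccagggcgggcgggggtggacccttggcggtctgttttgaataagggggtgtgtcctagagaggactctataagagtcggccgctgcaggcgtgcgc
Id4: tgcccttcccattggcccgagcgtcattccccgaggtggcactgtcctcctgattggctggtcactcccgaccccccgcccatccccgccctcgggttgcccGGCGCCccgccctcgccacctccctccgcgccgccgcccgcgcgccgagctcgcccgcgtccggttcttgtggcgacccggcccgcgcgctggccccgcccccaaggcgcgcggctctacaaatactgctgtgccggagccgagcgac
The Id2 window is chr12:25096093-25096342 on the minus strand, the Id3 window chr4:136143572-136143821 on the plus strand and the Id4 window chr13:48260866-48261115 on the plus strand. GGCGCC, which reads the same on both strands, occurred once in the *Id2* and once in the *Id4* window and not in the *Id3* window, and 9.59% of 32851 windows of that length hold it. The shorter Smad box GTCT, searched on both strands, occurred once in the *Id2* window and at 2 places in the *Id3* window, and 82.9% of windows hold it. These matches are letters in a window and were not tested as binding sites.

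Endothelial cells had the highest levels of *Id1*, *Id3*, *Smad1*, *Smad5*, *Smad6* and *Smad7* among the gates compared in all 3 libraries. *Id1*, the *Id* gene most used as a BMP readout, stood at 836, 1196 and 739 CPM in endothelial cells, given here and below in the order wild-type, *Mgp*-KO, *Pd*-KO. In mural cells it stood at 231, 221 and 135 CPM, in APCs at 56.8, 47.4 and 13.4 CPM, and in luminal epithelial cells at 14.3, 6.55 and 5.12 CPM. The order endothelial, mural, APC, luminal was the same in the 3 libraries, and the first 3 gates did not overlap over the libraries. *Id3*, which is expressed more broadly, stood at 1108, 1188 and 1023 CPM in endothelial cells, 796, 914 and 620 CPM in mural cells and 295, 394 and 195 CPM in APCs. Again these 3 ranges did not overlap. Luminal epithelial cells stood at 540, 398 and 349 CPM of *Id3*, above APCs in each library, unlike for *Id1*.

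**Figure D1:**
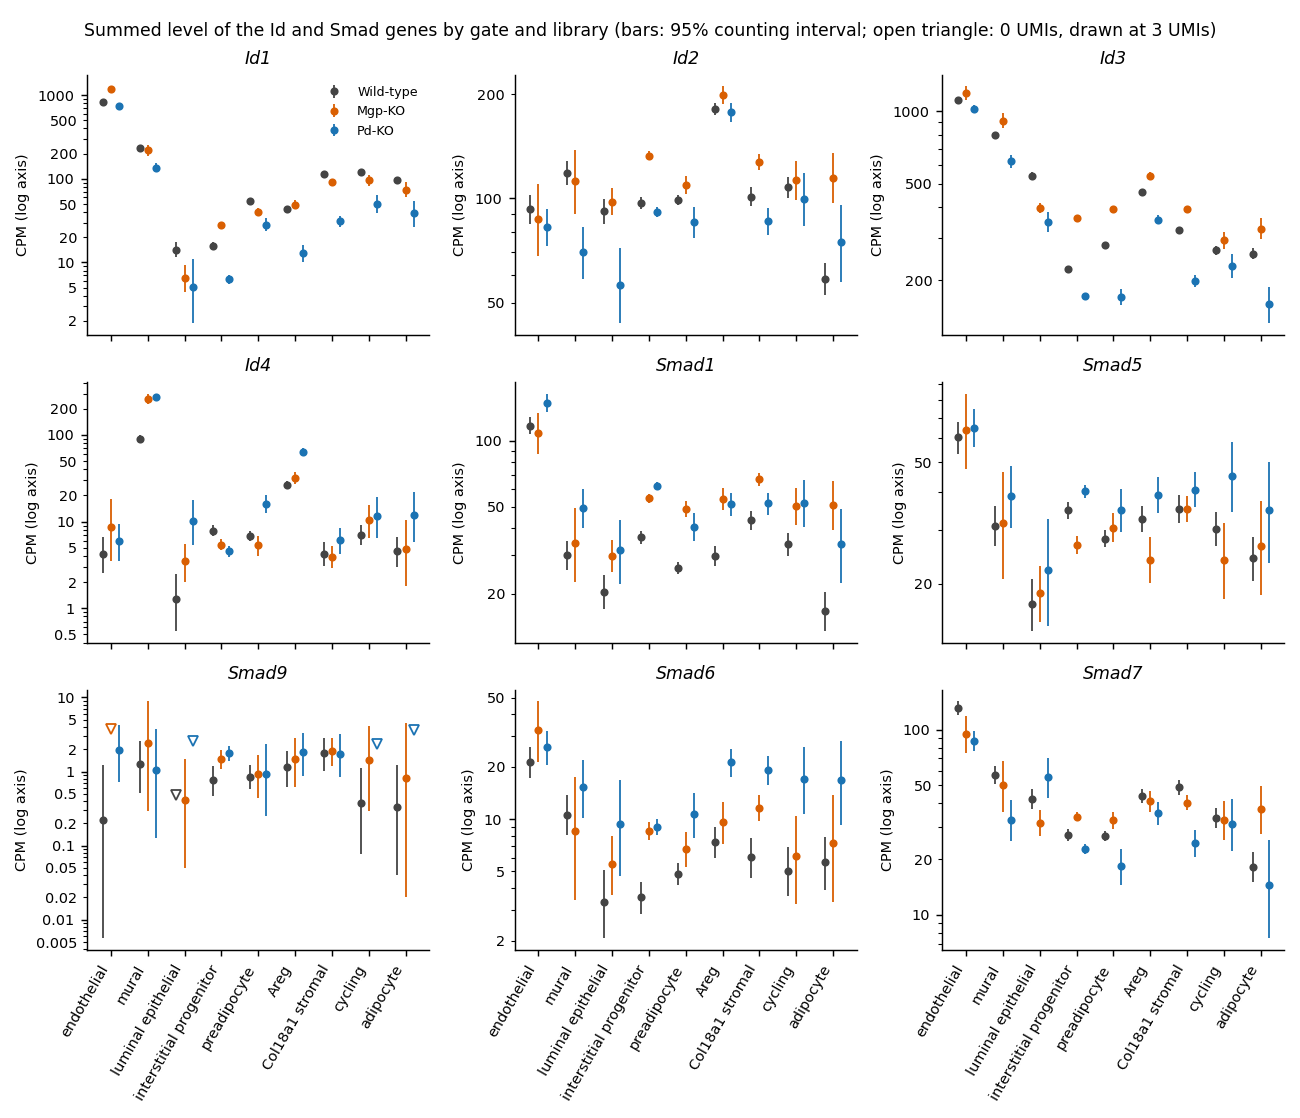
Level of each of the 9 genes (CPM, log axis) in the gates compared, 1 point per library and bars for the 95% counting interval. *Id1*, *Id3*, *Smad1*, *Smad5*, *Smad6* and *Smad7* are highest in the endothelial gate in each library, *Id4* in the mural gate, and *Smad9* reaches at most 2.44 CPM in the 9 gates drawn. Open triangles mark 0 UMIs, drawn at the limit of 3 UMIs.

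Summed counts per library and gate were compared with edgeR's quasi-likelihood test, with the library as a block and Benjamini-Hochberg adjustment over 14587 genes. The 4 gates above entered one fit, luminal cells included, and the APC subsets below another. Its p-values rest on how much differences between all fitted gates vary between 3 libraries of different genotype, not between replicate mice. Of the 8 genes that could be tested, 6 were higher and 1 was lower in endothelial cells than in APCs, where 47.3% of all genes differed, 20.3% higher and 27.0% lower. *Id1* was higher by 4.47 on the log2 scale (SE 0.36, adjusted p = 4.2e-06) and *Id3* by 1.66 (SE 0.19, adjusted p = 4.3e-05). Every library showed the direction of both.

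The Smad genes were higher in endothelial cells as well. *Smad1* stood at 117, 109 and 149 CPM in endothelial cells and 31.0, 55.6 and 57.2 CPM in APCs, a log2 difference of 1.13 (SE 0.18, edgeR adjusted p = 0.00046). *Smad5*, its close relative, differed least, at 60.3, 63.6 and 64.9 CPM against 30.9, 28.2 and 39.9 CPM (log2 difference 0.63, SE 0.14, adjusted p = 0.0032). The ranges of both genes in the 2 gates did not overlap. The inhibitory *Smad6* stood at 21.4, 32.4 and 25.9 CPM in endothelial cells against 4.99, 8.96 and 11.8 CPM in APCs (log2 difference 1.36, SE 0.25, adjusted p = 0.0013). *Smad7* stood at 131, 94.8 and 86.8 CPM against 32.1, 36.0 and 23.8 CPM (log2 difference 1.46, SE 0.23, adjusted p = 0.00039).

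*Id2*, which also acts in lymphoid and epithelial cells, went the other way, at 93.0, 87.3 and 82.6 CPM in endothelial cells against 109, 136 and 99.5 CPM in APCs (log2 difference -0.67, SE 0.19, edgeR adjusted p = 0.015). This call was lost without the *Mgp*-KO library (adjusted p = 0.14). *Id4* had a log2 difference of -1.0 (SE 0.41, adjusted p = 0.069) at endothelial levels of 4.23 to 8.73 CPM. *Smad9* was too low in these gates for the test, with 0.967, 1.36 and 1.56 CPM in APCs.

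Within the endothelial gate, the levels ran along the vessel types. *Id1* stood at 1344, 1439 and 1430 CPM in arterial cells, 705, 871 and 652 CPM in capillary cells, 762, 1024 and 686 CPM in venous cells and 175, 321 and 231 CPM in lymphatic cells. Arterial cells were above, and lymphatic cells below, all others in each library, and capillary and venous cells overlapped. *Smad7* was also high in arterial cells, at 284, 177 and 163 CPM against 131, 94.8 and 86.8 CPM over the whole endothelial gate. *Smad1*, in contrast, stood at 258, 463 and 433 CPM in lymphatic cells, against 117, 109 and 149 CPM over the whole gate. The *Mgp*-KO library held only 9 lymphatic, 45 arterial and 47 venous cells, and these subsets were given no test.

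Mural cells were marked by *Id4*. It stood at 90.7, 261 and 271 CPM in mural cells against 8.51, 7.32 and 11.1 CPM in APCs and 4.23, 8.73 and 5.90 CPM in endothelial cells. The log2 difference from APCs was 4.03 (SE 0.34, edgeR adjusted p = 9.6e-06) and that of endothelial from mural cells -5.03 (SE 0.41, adjusted p = 9.0e-06). Both kinds of mural cell carried it, with 134, 223 and 241 CPM in smooth muscle cells and 93.1, 353 and 312 CPM in pericytes. *Id2* divided them instead, with 228, 147 and 182 CPM in smooth muscle cells and 45.7, 14.1 and 57.4 CPM in pericytes. The pericytes of the *Mgp*-KO library were 20 cells.

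Against APCs, mural cells had 3 of the 8 genes higher and 2 lower, where 39.4% of all genes differed, 17.3% higher and 22.1% lower. *Id1* was higher by 2.14 (SE 0.33, edgeR adjusted p = 0.00045) and *Id3* by 1.09 (SE 0.19, adjusted p = 0.00092) beside *Id4*. *Smad1* was lower by a log2 difference of -0.64 (adjusted p = 0.021) and *Id2* by -0.55 (adjusted p = 0.045), and both calls were lost without the *Mgp*-KO library or without the *Pd*-KO library. *Smad5*, *Smad6* and *Smad7* had log2 differences of -0.29, 0.26 and 0.26, with adjusted p-values of 0.13 to 0.49.

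Against mural cells, endothelial cells had 6 of the 8 genes higher and *Id4* lower, where 36.0% of all genes differed, 17.5% higher and 18.6% lower. *Id1* led with a log2 difference of 2.33 (SE 0.33, edgeR adjusted p = 0.00031), followed by *Smad1* with 1.77 (SE 0.20, adjusted p = 5.9e-05), *Smad7* with 1.20, *Smad6* with 1.10 and *Smad5* with 0.92. *Id3* had the smallest, 0.57 (SE 0.19, adjusted p = 0.036), and lost its call without the *Mgp*-KO library (adjusted p = 0.052), without the *Pd*-KO library (adjusted p = 0.20) and with a stricter gate (adjusted p = 0.15). *Smad6* lost its call without the *Mgp*-KO library (adjusted p = 0.093) and among cells of at least 4000 UMIs (adjusted p = 0.22, log2 difference 0.69).

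**Figure D2:**
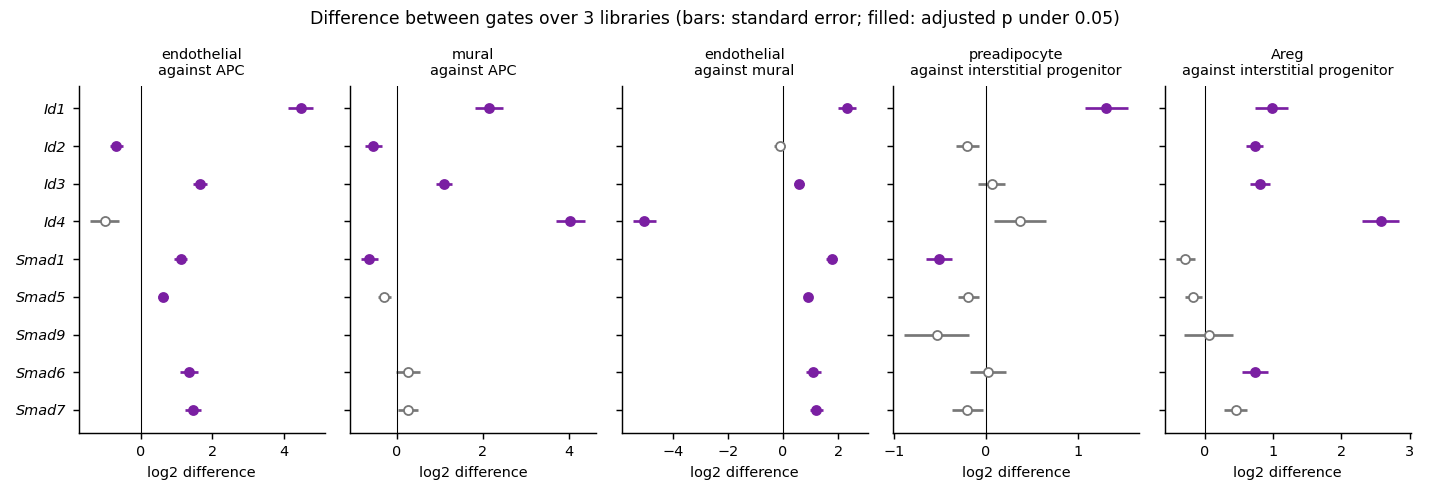
Log2 difference of each gene between cell types, from edgeR's quasi-likelihood fit over 3 libraries, filled where the adjusted p is under 0.05. Bars are a standard error derived from the difference and the F statistic of its test. *Id1* is 4.47 higher in endothelial cells than in APCs and *Id4* is 4.03 higher in mural cells than in APCs, while *Smad5* stays within 0.92 of 0 in every comparison.

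Carry-over of APC transcripts into the endothelial gate was low but unequal: the APC markers came to a median of 17.3, 1.96 and 5.33 UMIs per 10000 in endothelial cells. Free RNA, read from barcodes of 10 to 100 UMIs, held 112, 63.3 and 70.3 CPM of *Id1* and 740, 553 and 187 CPM of *Id3*. These lay below the endothelial levels of *Id1* and *Id3* in every library and above the APC levels of *Id1*. Their part in the levels of APCs was not tested.

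The other genes of the pathway, taken as fixed lists, moved in both directions between cell types. In endothelial cells against APCs, 4 of 10 tested BMP receptors and ligands were higher and 2 lower, 3 of 7 further BMP targets were higher and 2 lower, 2 of 3 E proteins were higher, and 4 of 9 TGFβ and common Smads with their corepressors and ligases were lower with none higher. Over all genes 20.3% were higher and 27.0% lower, with a median log2 difference of -0.12. The highest were *Hey1*, a Notch and BMP target of vessels (4.96, SE 0.31, edgeR adjusted p = 1.2e-06), and *Eng*, the endothelial coreceptor endoglin (4.05, SE 0.22, adjusted p = 6.0e-07). The lowest were *Bmp7*, a ligand (-4.94, SE 0.80, adjusted p = 0.00049), and *Bmpr1a*, a type I BMP receptor (-4.49, SE 0.35, adjusted p = 3.7e-06).

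In mural cells against APCs, 2 of the 10 receptors and ligands were higher and 4 lower, beside 17.3% and 22.1% of all genes. *Bmpr1b*, another type I receptor, was higher by 4.39 (SE 0.44, edgeR adjusted p = 2.8e-05) and *Msx2*, a homeobox target of BMP signals, by 3.23 (SE 0.48, adjusted p = 0.00038). *Tgfbi*, a TGFβ response gene, was lowest (-4.13, SE 0.55, adjusted p = 0.00018), then *Bmp4*, a ligand (-2.87, SE 0.55, adjusted p = 0.0020). Between endothelial and mural cells, *Eng* (3.79) and *Hey1* (3.05) were the highest, and *Bmpr1b* (-5.43) and *Dlx5*, a homeobox target (-5.18), the lowest, all with adjusted p-values of at most 0.013.

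The APC gate was divided by further markers into interstitial progenitor cells, preadipocytes, adipogenesis-regulatory cells (Aregs), *Col18a1* stromal cells, cycling cells and adipocyte-marker cells. *Id1* was lowest in interstitial progenitors in every library, at 15.7, 28.3 and 6.34 CPM. It stood at 55.1, 40.7 and 28.4 CPM in preadipocytes, at 43.4, 48.9 and 12.9 CPM in Aregs and at 115, 91.2 and 30.9 CPM in *Col18a1* stromal cells. Cycling cells had 121, 95.6 and 50.6 CPM and adipocyte-marker cells 96.6, 74.4 and 38.5 CPM. Over the libraries, the range of interstitial progenitors overlapped that of Aregs and lay below those of the other subsets, which overlapped each other or the Aregs.

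Between preadipocytes and interstitial progenitors, 1 of 9 genes was higher and 1 lower, where 37.2% of 14057 genes differed, 19.6% higher and 17.6% lower. *Id1* was higher in preadipocytes by 1.31 on the log2 scale (SE 0.24, edgeR adjusted p = 0.00025) and higher in each of the 3 libraries. *Smad1* was lower, with a log2 difference of -0.51 (SE 0.14, adjusted p = 0.0073), and lost the call without the *Pd*-KO library (adjusted p = 0.11). *Id3* stood at 280, 394 and 171 CPM in preadipocytes and 222, 362 and 171 CPM in interstitial progenitors, with a log2 difference of 0.06 (adjusted p = 0.79). Beside *Id1*, 10 of 10 genes of the dissociation stress list, immediate early and heat shock genes that digestion is known to raise, were higher in preadipocytes, with a median of 1.75. Their part in the difference was not tested. In endothelial cells against APCs, where *Id1* was also higher, 0 of 10 genes of this list were higher and 5 lower. Over all genes 20.3% were higher and 27.0% lower there. In mural cells against APCs, 1 gene of the list was higher and 5 lower, beside 17.3% and 22.1% of all genes.

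Aregs, the CD142-positive cells known to restrain adipogenesis, had the most *Mgp* among the wild-type APC subsets (3555 CPM). All 4 *Id* genes were higher in Aregs than in interstitial progenitors. *Id1* in Aregs was nonetheless below its level in *Col18a1* stromal, cycling and adipocyte-marker cells in every library, as given above. Against interstitial progenitors, 5 of the 9 genes were higher and none lower, where 26.6% of all genes differed, 13.8% higher and 12.8% lower. *Id4* stood at 26.6, 32.0 and 63.0 CPM in Aregs against 7.82, 5.42 and 4.54 CPM in interstitial progenitors (log2 difference 2.58, SE 0.27, edgeR adjusted p = 9.1e-07). The groups did not overlap. *Id2* stood at 181, 198 and 177 CPM in Aregs and was higher by 0.73 (SE 0.12, adjusted p = 0.00018). That was above its level in the other gates compared, with mural cells taken as a whole. The smooth muscle cells among them, given above, exceeded Aregs in wild-type and *Pd*-KO but not in *Mgp*-KO.

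*Id3* was higher in Aregs by 0.81 (SE 0.15, edgeR adjusted p = 0.00032), with 462, 538 and 356 CPM against 222, 362 and 171 CPM. *Id1* was higher by 0.98 (SE 0.24, adjusted p = 0.0044), a call lost without the wild-type library (adjusted p = 0.072). *Smad6* was higher by 0.74 (SE 0.19, adjusted p = 0.0082), lost without the wild-type library (0.094) and without the *Pd*-KO library (0.21). *Smad7* had a log2 difference of 0.45 (adjusted p = 0.055). The receptor Smads *Smad1*, *Smad5* and *Smad9* had differences of -0.28, -0.16 and 0.06, with adjusted p-values of 0.16 to 0.97. The stress list had 9 of 10 genes higher in Aregs, and its part was not tested.

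Of the other lists, 6 of 7 further BMP targets were higher in Aregs than in interstitial progenitors and 1 was lower, beside 13.8% and 12.8% of all genes. *Nog*, the secreted BMP antagonist noggin, differed most (6.63, SE 0.57, edgeR adjusted p = 2.5e-07), then *Bmpr1b* (5.49, SE 0.60, adjusted p = 3.2e-06). The ligands *Bmp7* (-3.78, SE 0.19, adjusted p = 2.4e-10) and *Bmp6* (-3.63, SE 0.22, adjusted p = 1.4e-09) were the lowest. Preadipocytes showed the same ligands lowest against interstitial progenitors, *Bmp7* with -4.86 and *Bmp6* with -3.91, with *Runx2*, a transcription factor of bone and a BMP target, highest (3.03, SE 0.22, adjusted p = 7.2e-09), then *Bmpr1b* (2.70). Of the receptors and ligands, 1 of those tested was higher and 5 lower in preadipocytes, and 1 was higher and 3 lower in Aregs. The shares over all genes were 19.6% higher and 17.6% lower in preadipocytes, and 13.8% higher and 12.8% lower in Aregs. Both comparisons share the interstitial progenitor sums.

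The genes with the most similar profile over 27 library and gate sums (9 gates, 6714 genes) were *Bnip2*, *Saraf* and *Ccdc85b* for *Id1* (highest Pearson r 0.91), *Gabra3*, *Spock2* and *Adm* for *Id2* (0.76), *Syf2*, *Hspb1* and *Cers4* for *Id3* (0.92), and *Sgip1*, *Synpo2* and *Dag1* for *Id4* (0.90). For the Smads they were *Uaca*, *Sptan1* and *Fut8* for *Smad1* (0.93), *Arl5a*, *Ccdc28b* and *Mfap3* for *Smad5* (0.92), *Rnf166*, *Tmem65* and *Rdh14* for *Smad9* (0.84), *Ppp1r9b*, *Elk4* and *Pcmtd1* for *Smad6* (0.92), and *Id3*, *Sypl* and *Gnai2* for *Smad7* (0.87). *Id3* was thus the nearest profile to *Smad7* among all genes compared. The sums share libraries and, for APC subsets, depth, so that these values describe the profiles only. *Smad9* stood at no more than 2.44 CPM in these sums and at 0 in some, so its profile carries much counting error.

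The genotype comparisons have 1 library on each side and no test. Each log2 ratio of CPM is given relative to the median ratio of all genes in that gate, with at least 50 UMIs per gene over both libraries, and a change of 1.5-fold or more past that median is counted. Both comparisons use the same wild-type library. Its file header names version 4 of the counting software Cell Ranger, where those of both knockouts name 7.1.0. The version thus differs in the same way as the libraries compared, and its part in the ratios was not tested. Genes of long genomic span stood higher in both knockout libraries: the median ratio in APCs ran from -0.37 for genes under 2 kb to 1.96 for genes over 200 kb in *Mgp*-KO, and from -0.58 to 2.13 in *Pd*-KO. The *Id* genes are short (1.16 to 4.80 kb) and *Smad1*, *Smad5*, *Smad6* and *Smad9* long (39.4 to 69.0 kb). Values marked as by span, or as relative to genes of like span, are therefore relative to the 200 genes nearest in span. They are given for most ratios of whole APC, endothelial and mural gates. Ratios without such a value are relative to all genes only and still carry the trend with span. These include all ratios of luminal cells, subsets, sexes and stress classes.

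**Figure D3:**
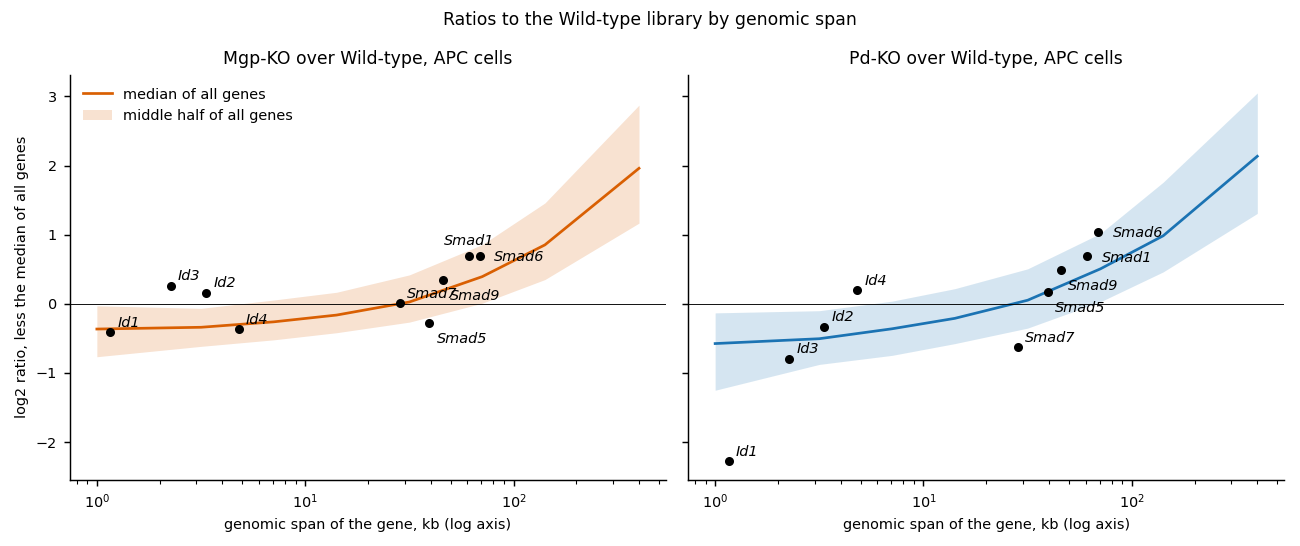
Median log2 ratio of knockout to wild-type APCs relative to all genes (line, with a shaded band from the lower to the upper quartile) by genomic span (kb, log axis), with the 9 genes as points. Ratios rise with span in both knockouts, from -0.37 to 1.96 in *Mgp*-KO and from -0.58 to 2.13 in *Pd*-KO, and *Id1* lies far under the trend in *Pd*-KO.

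In APCs of the *Pd*-KO library, 5 of the 9 genes passed 1.5-fold, beside 49.6% of all genes (28.3% higher, 21.3% lower): *Id1*, *Id3* and *Smad7* lower and *Smad1* and *Smad6* higher. *Id1* stood at 13.4 CPM (95% interval 12.6 to 14.3) against 56.8 CPM (55.5 to 58.2) in wild-type, a ratio of -2.28 relative to all genes and -1.68 relative to genes of like span. *Id3* stood at 195 against 295 CPM (-0.80, and -0.25 by span). *Smad7* stood at 23.8 against 32.1 CPM (-0.63, and -0.55 by span). *Smad6* stood at 11.8 against 4.99 CPM (1.04, and 0.50 by span) and *Smad1* at 57.2 against 31.0 CPM (0.69, and 0.28 by span). Relative to genes of like span, 2 genes passed 1.5-fold, *Id1* lower and *Id4* higher (0.65). The share of all genes past that limit by span is not given here, for this count or for those by span below.

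In APCs of the *Mgp*-KO library, 2 of the 9 genes passed 1.5-fold, beside 39.3% of all genes (25.4% higher, 13.9% lower), and none did relative to genes of like span. *Smad1* stood at 55.6 against 31.0 CPM (0.69, and 0.36 by span) and *Smad6* at 8.96 against 4.99 CPM (0.69, and 0.27 by span). *Id1* stood at 47.4 CPM (95% interval 45.9 to 49.0), a ratio of -0.41 and -0.10 by span. *Id3* stood at 394 against 295 CPM (0.26, and 0.58 by span) and *Id2* at 136 against 109 CPM (0.16, and 0.46 by span). *Smad7*, with 36.0 against 32.1 CPM, had a ratio of 0.01. The direct comparison of the knockout libraries with each other was not made.

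**Figure D4:**
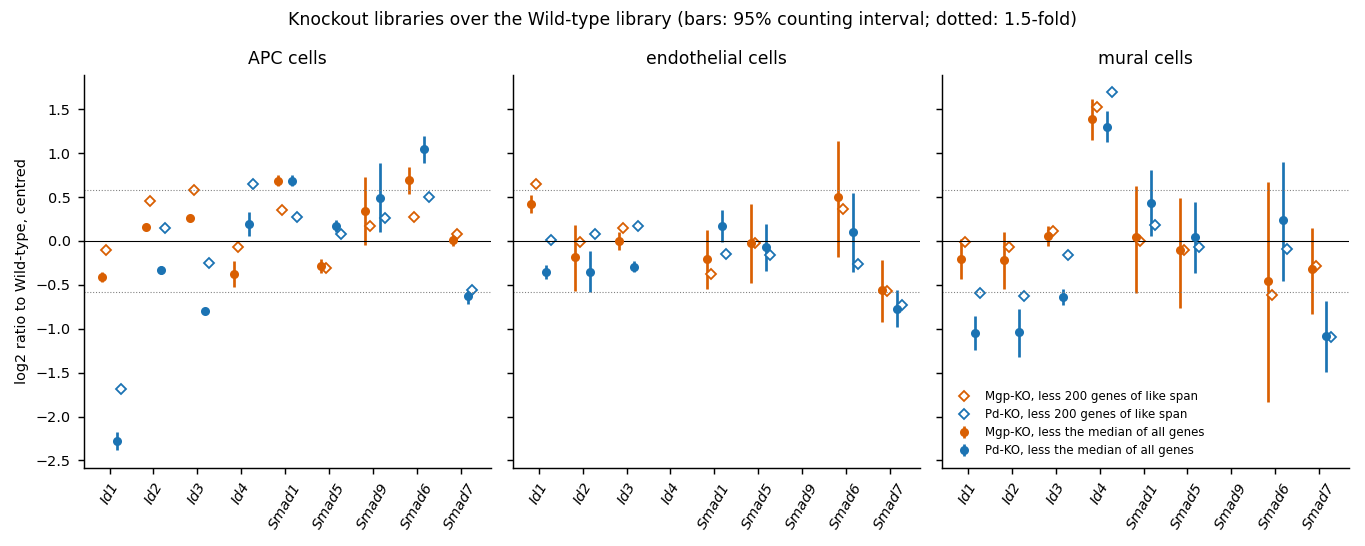
Log2 ratio of each gene in the knockout over the wild-type library, relative to the median of all genes, in APCs, endothelial and mural cells (filled points, bars for the 95% counting interval) and relative to genes of like span (open diamonds), with dotted lines at 1.5-fold. *Id1* in *Pd*-KO APCs (-2.28) and *Id4* in mural cells of both knockouts (1.38 and 1.30) lie farthest from 0 among genes with enough counts.

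The lower *Id1* of the *Pd*-KO library was seen in every APC subset. Its ratio relative to all genes was -1.52 in interstitial progenitors, -1.26 in preadipocytes, -2.02 in Aregs, -2.07 in *Col18a1* stromal cells, -1.47 in cycling cells and -1.62 in adipocyte-marker cells. It was -2.27 in cells of female and -2.32 in cells of male mice, as called by *Xist* and Y-linked transcripts. In *Mgp*-KO the subsets went different ways, with 0.69 in interstitial progenitors and -0.56 in preadipocytes. Interstitial progenitors made up 4081 of the 7303 *Pd*-KO APCs, 4559 of 11354 *Mgp*-KO APCs and 1731 of 8089 wild-type APCs, and they are the subset with the lowest *Id1*. The subsets are not uniform. Markers of the interstitial progenitor gate (*Dpp4*, *Pi16*, *Cd55*) and of the preadipocyte gate (*Icam1*, *Cd36*, *Apoe*, *Plin2*) are each shared by clusters that the paper keeps apart. In each pair the paper describes a cluster seen mainly after *Mgp* deletion. The mix of cells within a subset can therefore differ between libraries, and its part in these ratios was not tested.

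After each cell was thinned to 2000 UMIs, 8.27% of wild-type APCs held an *Id1* UMI (exact 95% interval 7.68 to 8.89), 7.72% of *Mgp*-KO APCs (7.23 to 8.22) and 2.15% of *Pd*-KO APCs (1.83 to 2.51). Before thinning the shares were 30.4%, 16.8% and 7.20% at median depths of 14225, 6484 and 9034 UMIs. Luminal epithelial cells, the gate with the least *Id1*, held 1.44%, 1.14% and 0.926% after thinning, at median depths of 20937, 8464 and 10238 UMIs before it. *Id1* in *Pd*-KO interstitial progenitors (6.34 CPM, 5.59 to 7.16) was within the interval of *Pd*-KO luminal cells (5.12 CPM, 1.88 to 11.2). That interval rests on 6 UMIs. In wild-type the same gates stood at 15.7 and 14.3 CPM. Luminal cells were not shown to mark a background level, so these values do not tell whether *Id1* exceeded background.

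The dissociation stress list was lower in *Pd*-KO APCs, as *Id1* was. In *Mgp*-KO APCs the list was higher, while *Id1* stood at 47.4 against 56.8 CPM. Summed over its 10 genes it stood at 9971 CPM in wild-type, 11945 CPM in *Mgp*-KO and 3737 CPM in *Pd*-KO APCs, and 10 of 10 of its genes were at least 1.5-fold lower in *Pd*-KO APCs, with a median ratio of -1.78. When APCs were divided by their own stress level into 4 quartile classes with common limits, *Id1* stood at 29.2, 60.1, 63.2 and 63.2 CPM from the lowest to the highest class in wild-type cells, at 21.3, 39.2, 52.1 and 57.2 CPM in *Mgp*-KO cells, and at 10.7, 15.1, 20.3 and 19.3 CPM in *Pd*-KO cells. The ratio of *Pd*-KO to wild-type within the classes was -1.66, -2.18, -1.85 and -1.94. In each class the *Pd*-KO cells had the least *Id1*. The classes did not equalize stress. Median stress UMIs per 10000 were 17.0, 16.8 and 12.8 in the lowest class and 189, 204 and 166 in the highest. Of the *Pd*-KO APCs, 3883 were in the lowest class and 315 in the highest. The part of stress in the lower *Id1* was not tested.

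**Figure D5:**
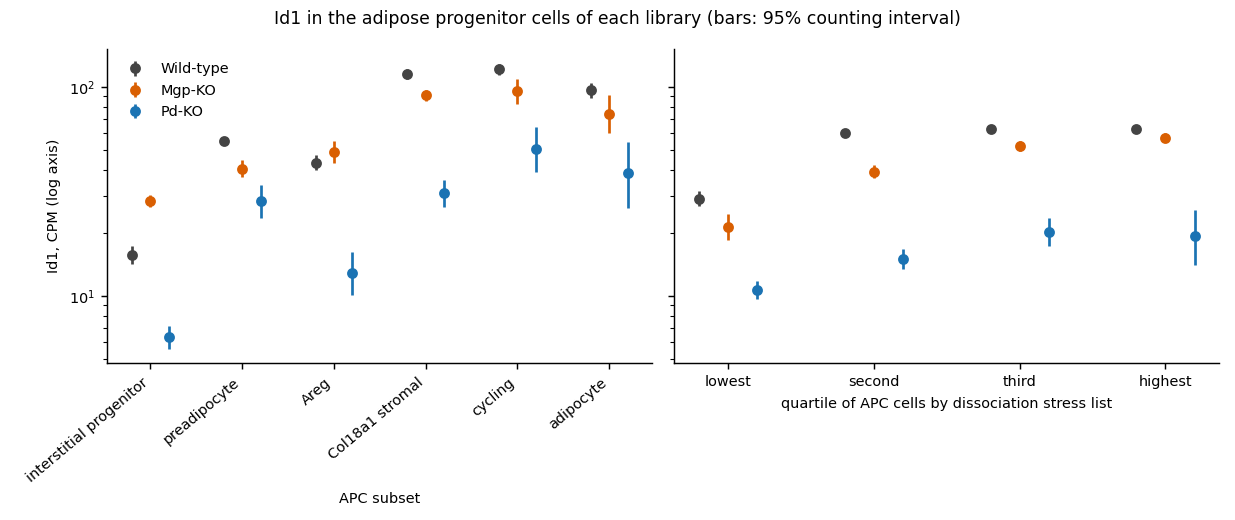
*Id1* (CPM, log axis, bars for the 95% counting interval) in the APC subsets and in the quartile classes of APCs by dissociation stress, 1 point per library. The *Pd*-KO points are lowest in every subset and class, from 6.34 CPM in interstitial progenitors to 50.6 CPM in cycling cells.

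In endothelial cells, none of 7 genes in *Mgp*-KO and 1 of 7 in *Pd*-KO passed 1.5-fold, beside 26.4% of all genes in *Mgp*-KO (13.7% higher, 12.6% lower) and 32.7% in *Pd*-KO (21.1% higher, 11.6% lower). *Id1*, with 1196 and 739 against 836 CPM, had ratios of 0.42 in *Mgp*-KO (0.65 by span) and -0.35 in *Pd*-KO (0.01 by span). *Smad7* was the gene past the limit in *Pd*-KO, at 86.8 against 131 CPM (-0.77, and -0.73 by span), and had a ratio of -0.56 in *Mgp*-KO. *Id3* had ratios of 0.00 and -0.29. The dissociation stress list stood at 5359, 6049 and 2561 CPM in this gate, with 10 of 10 genes at least 1.5-fold lower in *Pd*-KO (median ratio -1.18), and its part was not tested. In arterial cells, the endothelial subset with most *Mgp* in wild-type (2104 CPM, against 0 in *Mgp*-KO and 110 in *Pd*-KO), *Id1* stood at 1344, 1439 and 1430 CPM.

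*Id4* was the gene past 1.5-fold in mural cells of both knockouts. It stood at 261 CPM in *Mgp*-KO and 271 CPM in *Pd*-KO against 90.7 CPM in wild-type, ratios of 1.38 and 1.30 (1.53 and 1.69 by span). In *Mgp*-KO it was the 1 gene of 8 past 1.5-fold, beside 32.7% of all genes (18.2% higher, 14.5% lower). In *Pd*-KO 5 of 8 passed, beside 38.5% (23.0% higher, 15.4% lower), with *Smad7* (-1.08, and -1.10 by span), *Id1* (-1.05, and -0.59), *Id2* (-1.04, and -0.63) and *Id3* (-0.64, and -0.16) lower. The make-up of the gate moved with these values: pericytes were 168, 20 and 220 cells and smooth muscle cells 227, 95 and 45 cells. Within pericytes, the *Pd*-KO ratio was 1.52 for *Id4*, -0.69 for *Id1*, -0.60 for *Id3*, -1.73 for *Smad7* and 0.11 for *Id2*. The ratio of *Id4* in smooth muscle cells was 0.69 in *Mgp*-KO. *Id4* was higher in *Pd*-KO pericytes and in *Mgp*-KO smooth muscle cells, the only mural subsets with at least 50 cells on both sides. The whole mural gate held 791, 198 and 434 cells, and those in neither subset were not compared apart. The part of the make-up of the gate in these values was not tested. The dissociation stress list stood at 8372, 12984 and 3300 CPM in mural cells, with 10 of 10 genes at least 1.5-fold lower in *Pd*-KO (median ratio -1.49), and its part in these values was not tested.

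In luminal epithelial cells, 3 of 6 genes were at least 1.5-fold lower and none higher in each knockout, but not the same genes. They were *Id1*, *Id3* and *Smad7* in *Mgp*-KO, and *Id1*, *Id2* and *Id3* in *Pd*-KO. *Id2* had a ratio of -0.06 in *Mgp*-KO and *Smad7* one of 0.11 in *Pd*-KO. Beside these, 30.4% of all genes passed in *Mgp*-KO (20.7% higher, 9.66% lower) and 41.2% in *Pd*-KO (24.7% higher, 16.5% lower). These ratios were not set against genes of like span. *Id1* rested on 90, 32 and 6 UMIs in this gate. *Id3* stood at 540, 398 and 349 CPM, with ratios of -0.60 in *Mgp*-KO and -0.91 in *Pd*-KO.

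Over the fixed lists in APCs, 6 of 10 BMP receptors and ligands were at least 1.5-fold higher and none lower in each knockout, with medians of 0.65 in *Mgp*-KO and 0.82 in *Pd*-KO. Over all genes the shares were 25.4% higher and 13.9% lower in *Mgp*-KO, and 28.3% higher and 21.3% lower in *Pd*-KO. Of the 7 further BMP targets tested, 1 was higher and 1 lower in *Mgp*-KO, and 1 was higher and 3 lower in *Pd*-KO. The TGFβ and common Smads with their corepressors and ligases had 4 of 9 genes higher in each, with none lower in *Mgp*-KO and 1 lower in *Pd*-KO. Of the TGFβ response genes, 0 of 5 in *Mgp*-KO and 3 of 5 in *Pd*-KO were lower, with none higher. E proteins had 1 of 3 higher in each. These counts are relative to all genes and were not set against genes of like span. They are for APCs as a whole, and the mix of subsets differed between libraries. Within interstitial progenitors, 2 of 9 receptors and ligands were higher and 1 lower in *Mgp*-KO, and 3 higher and 2 lower in *Pd*-KO. Over the subsets that list had medians of -0.12 (preadipocytes) to 0.60 (cycling cells) in *Mgp*-KO, and 0.29 (preadipocytes) to 1.17 (adipocyte-marker cells) in *Pd*-KO. Shares of all genes are not given for subsets, and the part of the mix was not tested.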

How the data were processed

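Unfiltered UMI counts, as the authors deposited them, were read for 3 libraries of 10x Genomics 3′ v3 chemistry, with 184102026 wild-type, 93212243 *Mgp*-KO and 83942865 *Pd*-KO UMIs. The paper names mm10 and Cell Ranger 6.1.1, the submitters' processing notes GRCm39 and the same version, and the file headers Cell Ranger 4 for the wild-type and 7.1.0 for both knockout libraries. Default settings were used according to the study's methods, and by default version 6.1.1 does not count intronic reads whereas 7.1.0 does. Which setting made each file is not given in the sources used here, and it would change the counts of long genes most.

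Cells needed at least 2000 UMIs and at most 10% mitochondrial UMIs. A cell entered a gate when its highest marker score (mean natural log of 1 plus UMIs per 10000) was at least 0.5 and 1.5 times the next, with 3 markers detected, and a subset at a margin of 0.25. Within 0.25 of that ratio lay 565, 140 and 143 cells. Cells in no gate were 5.72%, 1.98% and 2.49%. Doublets stayed in the main values. For an alternative, the 5% of cells with the highest Scrublet score (scanpy 1.11.5) were removed, because its own threshold marked only 2 *Mgp*-KO cells. Counts were summed per library and gate and scaled to CPM. Types were compared with edgeR 4.0.16 (R 4.3.3; quasi-likelihood test, TMM, library block, filterByExpr, Benjamini-Hochberg at 0.05) in gates of at least 50 cells in each library, with DESeq2 1.42.0 as an alternative. The SE printed with an edgeR difference is the size of that difference divided by the square root of the F statistic of its test. Genotypes were compared as ratios with exact conditional binomial intervals, by Python 3.11.15 with scipy 1.17.1. Both steps were tested on simulated data. Intervals are at 95% and cover counting error only. Span came from GENCODE M21. The stress quartile classes were added after seeing the data.

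All 9 genes are named, with the 3 nearest profiles of each (genes of at least 20 CPM), and of the other lists the 2 highest and 2 lowest differences per comparison of types. Members and lists were chosen with earlier results of these data known. The alternatives were the normalization, the filter on low counts, the UMI minimum, a stricter gate, removal of doublets, each library left out, each sex, each subset, and centring by span.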

Additional observations from a re-analysis of the deposited data

Results flagged for a closer look

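Some ratios to wild-type pointed in opposite directions in different cell types, and these differences were not tested. In the *Mgp*-KO library the log2 ratio of *Id1* relative to all genes was 0.69 in interstitial progenitors and -1.28 in luminal epithelial cells, where it rested on 90 wild-type and 32 *Mgp*-KO UMIs. In the same library *Smad7* had 0.85 in adipocyte-marker cells and -0.59 in luminal epithelial cells. *Id4* had 1.38 in mural cells and -0.69 in interstitial progenitors of *Mgp*-KO, and 1.30 and -0.99 in those of *Pd*-KO.

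Gates too small for the comparisons also held signal. *Id2* stood at 410 CPM in the 88 Schwann-gated cells of the wild-type library and at 524 CPM in the 7 leukocyte-gated cells of the *Mgp*-KO library. *Smad9* stood at 31.4 CPM (12 UMIs) in the 90 neuron-gated cells of the wild-type library, against 0.967 CPM in wild-type APCs, and no cell of either knockout passed the neuron gate.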

How the results depend on the processing

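Between types, 350 values of single genes under an alternative kept their side of the threshold, and 10 gained and 16 lost a call. None with a call in either setting reversed. Some values without a call changed sign. *Id4* in preadipocytes against interstitial progenitors had 0.37 as reported and -0.17 at the lowest, and *Smad6* in mural cells against APCs had 0.26 and -0.11. Leaving out a library gave counts of called genes of 3 to 5 for mural cells against APCs (5 with all libraries), 1 to 2 for preadipocytes (2) and 3 to 6 for Aregs (5). Calls over all genes were fewer as well. For Aregs, 1942 genes were higher and 1799 lower of 14057 with all libraries, and 1481 and 1345 of 13814 without wild-type. For mural cells, 2522 were higher and 3230 lower of 14587, and 1640 and 2009 of 14023 without *Pd*-KO. Every comparison of types had the library as a block.

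Between genotypes, 246 values of single genes moved outside the 95% counting interval of the reported value and 392 did not, 27 counts of genes moved by over 1.5 times and 53 did not, and no counted change reversed. No paired analysis was possible because each genotype has 1 library, so that no replicate number pairs the genotypes. In *Mgp*-KO APCs, 2 genes passed 1.5-fold as reported, 0 by span, 0 with no filter on low counts, 0 within cycling cells, 1 within preadipocytes, 1 within *Col18a1* stromal cells and 4 within interstitial progenitors. In *Pd*-KO APCs, 5 passed, against 2 by span, 3 and 2 within the lowest and second stress quartile and 2 within cycling cells. In *Mgp*-KO endothelial cells, 0 passed, against 1 with median-of-ratios scaling, by span, with cells weighted equally and in female cells, 2 with no filter or a minimum of 500 UMIs, and 3 in male cells. In *Pd*-KO endothelial cells, 1 passed, against 2 with no filter, with 4000 UMIs and in female cells. In *Mgp*-KO mural cells, 1 passed, against 2 by span, with the stricter gate and without doublets, 3 with no filter, with 4000 UMIs and in female cells, and 6 in male cells. The share of all genes past the limit under each of these alternatives is not given here. The counts therefore do not tell a change of these genes from wider ratios of all genes. Small gates limit the depth most, above all for *Smad6* and *Smad9*.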
